A study of Mus musculus with 4 samples.

Results

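P2ry12-low and P2ry12-high microglia were compared within 1 droplet single-cell RNA library from irradiated brain at 6 h. Cells were kept from 2000 UMIs (molecular tags that count each captured transcript 1 time), 500 detected genes, at most 10% mitochondrially encoded UMIs and 1 Tmem119 UMI, and were ranked by the share of their UMIs that came from P2ry12. The rule kept 1840 of the 2023 barcodes of the irradiated library. The ranked cells were cut into 4 bins of 25% each, and the lowest bin (460 cells, P2ry12-low) and the highest bin (460 cells, P2ry12-high) together held 920 cells, or 45.5% of that library, out of 8486 barcodes in the series. The same bins of the sham library at 6 h, 636 P2ry12-low and 635 P2ry12-high cells out of 2541 that passed, served as the yardstick. The bins were chosen by P2ry12 itself, so its values below are a description. Tmem119 and the mitochondrially encoded genes also bear on which cells passed, and no other single gene was used.

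The libraries come from C57BL/6 mice that received whole-brain irradiation with 8 Gy on postnatal day 21, or a sham procedure with no dose, with tissue taken at 6 h or at 1 week. Each of the 4 groups is 1 library pooled from 4 mice, so the spread between mice is not measured, no test between groups can be made, and no p-value is given. The labels name brain as the source and the design text names the hippocampus, so the region is not settled. The files hold 8486 barcodes and the design text states 8095 cells.

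Microglia are the resident macrophages of the brain. P2ry12 is a purine receptor coupled to Gi proteins with which microglial processes sense ADP and ATP released from injured or active neurons and grow toward them. It is among the most selective markers of resting, so-called homeostatic microglia, and its transcript is known to decline when microglia take on reactive or disease-associated states. The gene (ENSMUSG00000036353) lies on chromosome 3 at 59216272 to 59262871, minus strand, in GRCm38 (mm10).

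In irradiated cells the median P2ry12 level was 723 UMIs per 1000000 UMIs (CPM) in the lowest bin, 2115 CPM in the second, 3635 CPM in the third and 5834 CPM in the highest. In sham cells the same medians were 3522, 5713, 7700 and 10234 CPM. Every irradiated bin was thus below the sham bin of the same rank, and the irradiated P2ry12-high cells had about the level of the second sham bin. Summed over cells, P2ry12-low irradiated cells held 1337 P2ry12 UMIs (680.3 CPM) and P2ry12-high irradiated cells 9694 (6207 CPM), a log2 fold of -3.19. Sham P2ry12-low cells held 8367 and sham P2ry12-high cells 23081, a log2 fold of -1.73. The last irradiated cell inside the low bin was at 1417 CPM and the next outside at 1425 CPM. At the upper limit the highest bin began at 4479 CPM and the next cell below was at 4469 CPM. Among the irradiated P2ry12-low cells 48 held no P2ry12 UMI, against 5 of the sham P2ry12-low cells. By contrast 49 sham cells (1.93%) fell at or under the irradiated low limit, and 1990 (78.3%) were at or over the irradiated high limit.

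**Figure D1:**
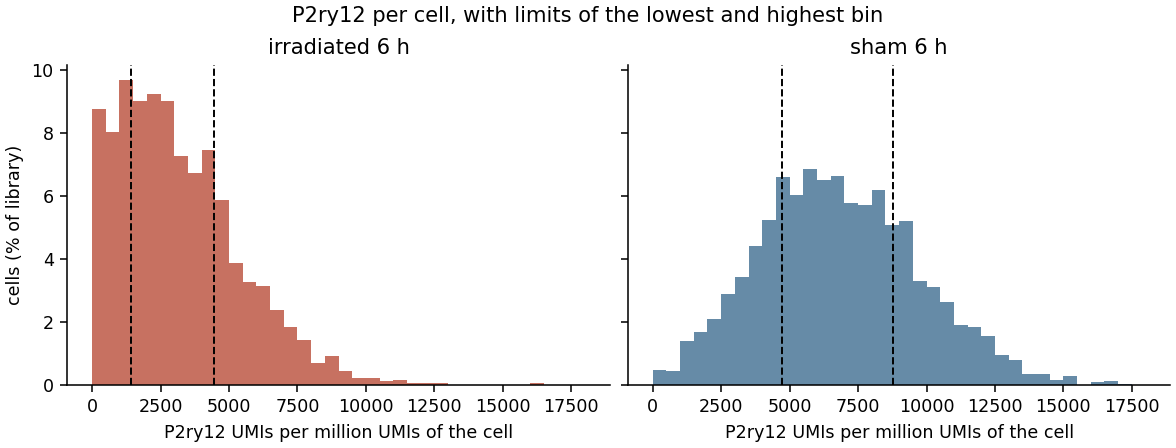
P2ry12 level per cell in CPM (x axis) against the percentage of cells (y axis) in the irradiated and the sham library at 6 h, with the limits of the lowest and highest bins marked. The irradiated distribution lies to the left of the sham one, with bin medians of 723 to 5834 CPM against 3522 to 10234 CPM.

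The label of the cells was checked against markers fixed for 16 cell classes. All 9 microglia markers other than P2ry12 were detected in every bin, and their summed level was 31696, 38388, 41782 and 44284 CPM from the lowest to the highest irradiated bin. In sham the lowest bin stood at 39824 CPM and the highest at 48558 CPM. Monocyte markers summed to 97.2, 39.2, 30.9 and 16.6 CPM over the irradiated bins and to 71.8, 45.2, 16.8 and 21.2 CPM over the sham bins. Of the 191 monocyte-marker UMIs in irradiated P2ry12-low cells, 104 came from Ms4a4c and 64 from Plac8, while Ly6c2, Chil3 and Fn1 were at 0 UMIs. Border macrophage markers were at 205, 179, 188 and 181 CPM in the irradiated bins, but most of these UMIs came from Stab1. Stab1 held 310 of 402 such UMIs in irradiated P2ry12-low cells and 270 of 283 in P2ry12-high cells. Pf4 had 35 and 0 UMIs, Ms4a7 25 and 0, Mrc1 17 and 11 and Cbr2 2 and 2. Of 10 border macrophage markers, 1 was at 0 in P2ry12-low and 7 in P2ry12-high cells. Neutrophil markers were at 169 CPM in P2ry12-low cells and 166 CPM in P2ry12-high cells with 8 of 10 markers at 0. Taken as a whole the low bin was microglial by its markers, of which Tmem119 was required of every cell by the rule. The part of the small monocyte-marker and border macrophage signals in the results was not tested. The 48 irradiated cells without a P2ry12 UMI had 25842 CPM of microglia markers and 259 CPM of monocyte markers, against 32390 and 78.0 CPM in the other P2ry12-low cells.

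Depth and RNA content also moved with the bins. Median UMIs per cell were 4015, 3706, 3442.5 and 3320.5 from the lowest to the highest irradiated bin, and 3846.5, 3660, 3511 and 3358 in sham. The median mitochondrial share was 1.25% in P2ry12-low and 0.962% in P2ry12-high irradiated cells. Cells with 3 or more UMIs of another class made up 21.3% of P2ry12-low and 15.4% of P2ry12-high irradiated cells, and 19.3% and 10.7% in sham. The results were recomputed with bins drawn within 10 classes of depth and without the cells that carried markers of another class. With bins drawn within classes of depth, the irradiated fold of 18 of 42 named genes left its interval, and the values are given below where they moved most. Scrublet, a doublet caller, marked only 0.297% of irradiated and 0.225% of sham barcodes, far below its preset rate, so doublets can remain. The irradiated and sham libraries at 6 h shared 12 cell barcodes, of which 11 passed the rule, and without them 671 genes were higher and 1148 lower in irradiated P2ry12-low cells, close to the counts with them.

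UMIs were summed over the cells of each bin, and a gene was counted as measured from 50 UMIs over both bins and as called from a 1.5-fold difference whose exact 95% binomial interval excluded no difference. These intervals, like the Poisson intervals of levels, cover counting error only, and are too narrow where a few cells hold most UMIs of a gene. In irradiated cells 670 of 6667 measured genes were higher in P2ry12-low cells (10.0%) and 1145 were lower (17.2%). In sham cells 379 of 7461 genes were higher (5.08%) and 234 were lower (3.14%). The median absolute log2 fold was 0.38 in irradiated cells and 0.22 in sham cells. The median over all measured genes was -0.14 in irradiated cells and -0.04 in sham cells, so a fold near -0.14 is the middle of the irradiated comparison. With median-of-ratios scaling, which sets that middle to 0, the irradiated split became 935 higher and 807 lower, so the excess of lower over higher genes depends on the scaling. Of the 593 genes called higher in irradiated cells and measured in sham cells, 230 (38.8%) were also higher in sham P2ry12-low cells, and these are 70.6% of the sham genes measured in both. Of 1132 genes called lower, 119 (10.5%) were also lower in sham, 64.3% of the sham genes measured in both. Between the libraries, the irradiated fold was larger than the sham fold with intervals apart for 240 of 6499 genes (3.69%) and smaller for 453 (6.97%).

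**Figure D2:**
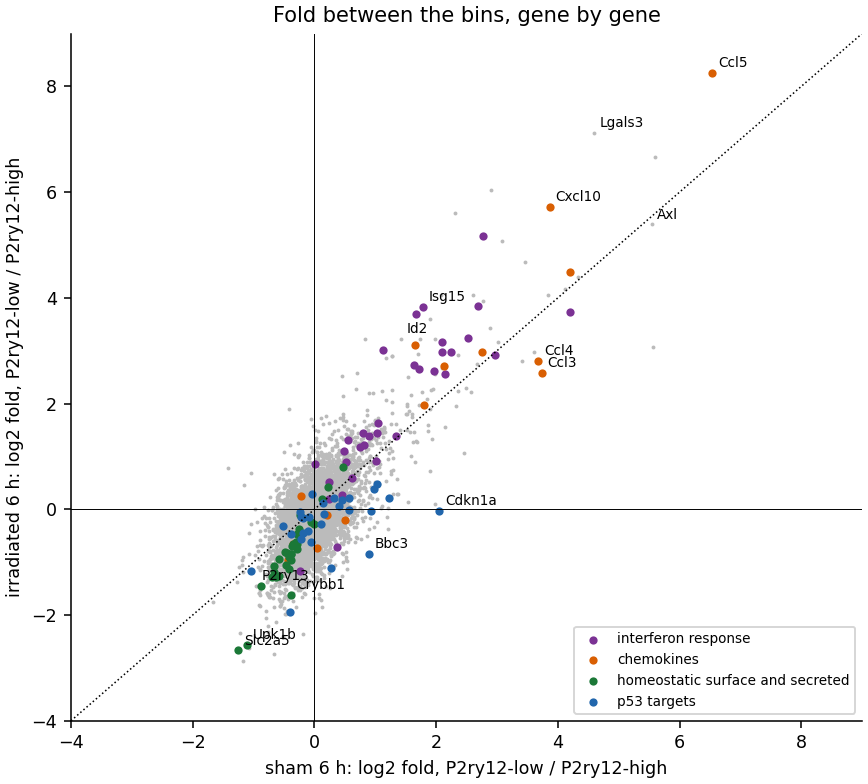
Log2 fold of P2ry12-low over P2ry12-high cells in sham (x axis) and in irradiated cells (y axis), 1 point per gene measured in both, with the dotted line marking equal folds. Id2 (3.23 in irradiated, 1.42 in sham) and Isg15 (3.83 and 1.78) lie above the line, and Cdkn1a (-0.03 and 2.05) and Crybb1 (-1.62 and -0.39) lie below it.

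Homeostatic surface and secreted genes fell together with P2ry12. Of 32 measured members, 23 were lower, against 17.2% of all genes, and 1 was higher in irradiated P2ry12-low cells, with a median log2 fold of -0.84, against -0.14 over all genes. In sham P2ry12-low cells 8 of 32 were lower, against 3.14% of all genes, with a median of -0.39. Slc2a5, the fructose transporter and a microglia marker (chromosome 4, 150119283 to 150144169, plus strand), had 63.1 CPM in P2ry12-low and 401 CPM in P2ry12-high irradiated cells, a log2 fold of -2.67 (95% interval -2.96 to -2.39). In sham its levels were 316.5 and 757 CPM, a log2 fold of -1.26 (-1.38 to -1.14). Its level was ordered over all 4 irradiated bins, at 63.1, 156.9, 239 and 401 CPM. Crybb1, a crystallin that microglia express, had 297 and 914 CPM in irradiated cells (log2 fold -1.62) and 1055 and 1380 CPM in sham cells (-0.39). Tmem119, a membrane protein used as a microglia marker, had 1444 and 3511 CPM in irradiated cells (-1.28) and 1962 and 3176 CPM in sham cells (-0.69). Because the rule asked for 1 Tmem119 UMI in each cell, the Tmem119 fold is bounded by that choice. Selplg, the P-selectin ligand, was at -1.20 in irradiated cells and -0.66 in sham cells.

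Not every homeostatic gene followed. Cx3cr1, the fractalkine receptor, was lower at -0.65, and so was Csf1r, the receptor on which microglial survival depends, at -0.62. Trem2, a lipid-sensing receptor, was at -0.28 and its adaptor Tyrobp at 0.19, both under the threshold. Gpr84, a fatty-acid receptor of activated microglia, was the member that was higher, at 0.80. Every one of these folds had the same sign in sham cells and was smaller in size there: -0.35 for Cx3cr1, -0.30 for Csf1r, -0.01 for Trem2, 0.12 for Tyrobp and 0.46 for Gpr84. Of the 32 members, 25 had an irradiated fold below the sham fold with intervals apart, and none above.

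Among purine signalling genes 3 of 10 measured were lower and 1 was higher in irradiated P2ry12-low cells. Over all genes 17.2% were lower and 10.0% higher, so the 1 higher member is near that share. P2ry13, the ADP receptor next to P2ry12 on chromosome 3, had 468 CPM in P2ry12-low and 1275 CPM in P2ry12-high cells, a log2 fold of -1.45 in irradiated cells and -0.96 in sham cells. Adora3, an adenosine receptor, was lower in irradiated cells, with 78.9 and 158 CPM, and had a log2 fold of -0.18 in sham cells. P2rx4, an ATP-gated channel associated with activated microglia, went the other way, at 0.69 in irradiated and 0.61 in sham cells. P2rx7 (-0.39), P2ry6 (-0.31), which binds UDP, and Entpd1 (-0.46), which breaks down ATP, did not reach the threshold. Of the genes near P2ry12 on chromosome 3, 3 of 6 measured were lower, with Med12l, whose locus spans P2ry12, at -1.29 and the splicing factor Mbnl1 at -0.78. The counting is not stated to use strand, so reads where Med12l and P2ry12 overlap may have been counted for either, which was not tested.

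Among transcription factors of microglial identity, 8 of 23 were lower and 4 higher in irradiated P2ry12-low cells, and 1 was lower and 5 higher in sham. The shares of all genes were 17.2% lower and 10.0% higher in irradiated cells and 3.14% and 5.08% in sham cells. The irradiated median of the list was -0.44, and -0.06 with cells thinned to 2000 UMIs. Mef2c, which restrains inflammatory responses of microglia, had 488 and 1000 CPM in irradiated cells (log2 fold -1.04) and 985 and 1112 CPM in sham cells (-0.18). Sall1, a factor that marks microglia among macrophages, was at -1.14, and Maf at -0.94. Irf8 (-0.13) and Spi1 (-0.44), which specify the macrophage lineage, did not reach the threshold. The 4 members that were higher were Klf2, Klf6, Egr1 and Smad3. Klf2 and Egr1 are also immediate early genes, and had 1.27 and 1.49 in irradiated and 1.69 and 1.52 in sham cells. In TGF-beta signalling, the pathway that maintains microglial identity, 5 of 18 were lower, with the receptor genes Tgfbr1 at -0.66 and Tgfbr2 at -0.72, and 3 were higher.

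The largest of those was Id2, an inhibitor of basic helix-loop-helix factors (chromosome 12, 25093799 to 25097140, minus strand). It had 1062, 511, 283 and 113 CPM from the lowest to the highest irradiated bin, a log2 fold of 3.23 (3.01 to 3.46). In the sham bins it had 158, 72.5, 53.5 and 58.9 CPM, a log2 fold of 1.42 (1.13 to 1.72). Id2 ranked first among the genes whose fold was larger in irradiated cells. With bins drawn within classes of depth its log2 fold was 2.24 in irradiated and 1.31 in sham cells. Irradiated P2ry12-high cells stood above every sham bin except the lowest for Id2.

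**Figure D3:**
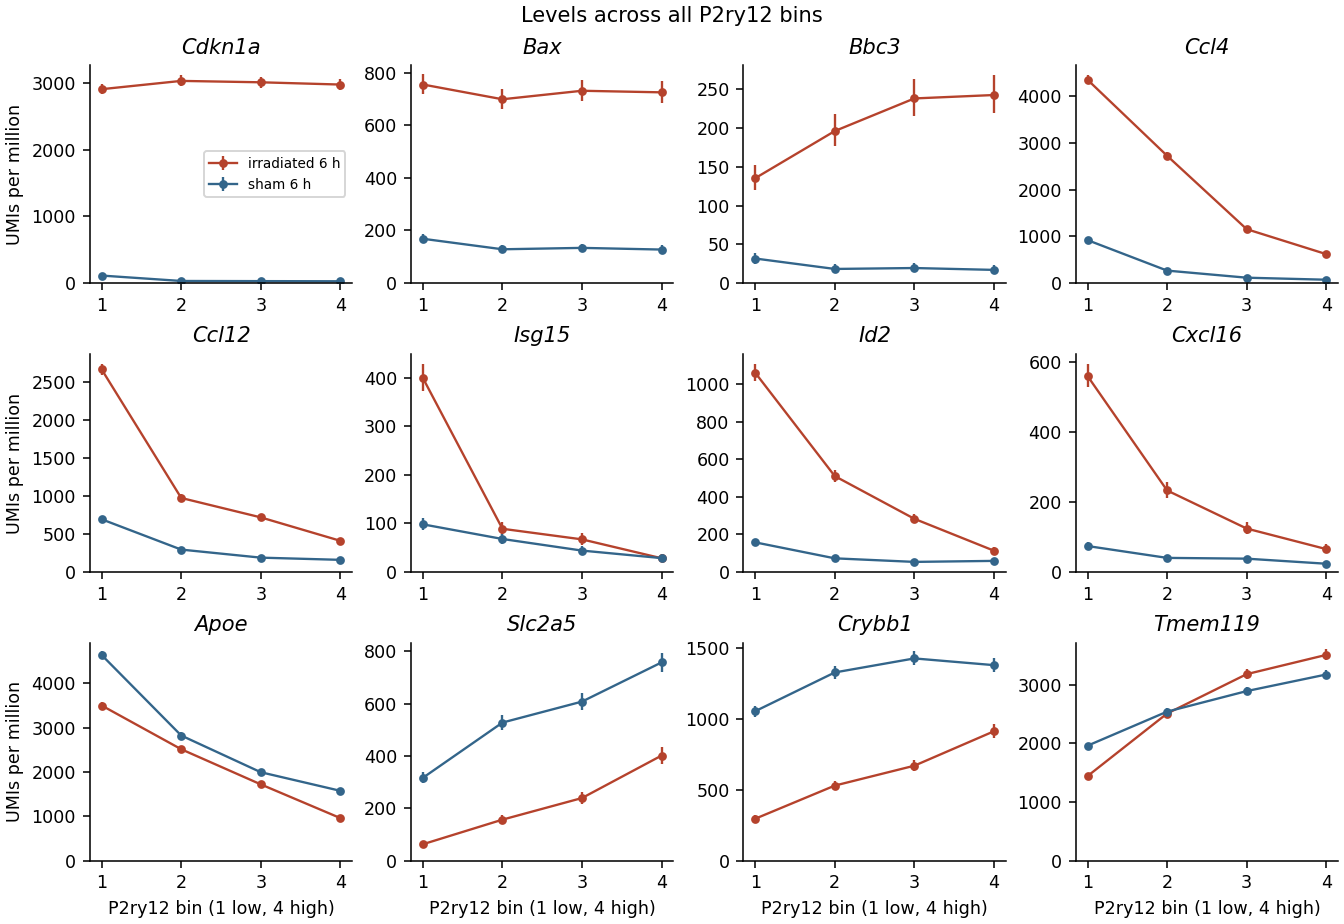
Level in CPM (y axis, 1 panel per gene) over the P2ry12 bins from lowest to highest (x axis) in irradiated and sham cells at 6 h, with bars for the exact 95% Poisson interval. Id2 goes down over the irradiated bins from 1062 to 113 CPM while Cdkn1a stays between 2908 and 3033 CPM, and Slc2a5 and Crybb1 climb over the irradiated bins.

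Genes of the interferon response, which type I interferons switch on, were higher in P2ry12-low cells. Of 39 measured members 33 were higher, against 10.0% of all genes, and 1 lower in irradiated cells, with a median log2 fold of 2.62. In sham 25 of 34 were higher, against 5.08% of all genes, and none lower, with a median of 1.09. A gene that is high in P2ry12-low cells alone passes 50 UMIs through those cells, so the members measured differ between the libraries, and over the 33 measured in both the medians were 1.44 in irradiated and 1.05 in sham cells. The irradiated median was 1.5 without cells carrying markers of another class, 1.51 with cells thinned to 2000 UMIs, 1.63 for genes from 200 UMIs and 1.78 without the 10% of P2ry12-low cells richest in interferon, class II and chemokine UMIs, for which the sham median was 0.47. For genes measured from 1 UMI the interferon medians were 1.78 in irradiated and 1.58 in sham cells, so the gap between the libraries depends on that minimum. Isg15, a ubiquitin-like modifier (chromosome 4, 156199424 to 156200818, minus strand), and Rsad2, which encodes the antiviral enzyme viperin, were both called. The promoter sequences of Isg15, Rsad2 and Cxcl10, a chemokine that interferons induce, are shown because each holds the core of the element that interferon-activated factors bind. They run 5′ to 3′ on the gene's strand from 250 bases before to 50 after the start (RefSeq, GRCm38.p6), and capitals mark the motif searched on either strand, GAAA and GAAA with 2 bases of any kind between them. They lie at chr4:156200769-156201068 for Isg15, chr12:26456403-26456702 for Rsad2 and chr5:92348840-92349139 for Cxcl10, all on the minus strand.
Isg15: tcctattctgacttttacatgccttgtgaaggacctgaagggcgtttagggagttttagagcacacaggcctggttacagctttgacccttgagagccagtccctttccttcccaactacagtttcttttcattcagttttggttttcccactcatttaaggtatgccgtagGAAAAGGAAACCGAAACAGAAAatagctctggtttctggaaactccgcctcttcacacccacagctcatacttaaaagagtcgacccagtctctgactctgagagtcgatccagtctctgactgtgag
Rsad2: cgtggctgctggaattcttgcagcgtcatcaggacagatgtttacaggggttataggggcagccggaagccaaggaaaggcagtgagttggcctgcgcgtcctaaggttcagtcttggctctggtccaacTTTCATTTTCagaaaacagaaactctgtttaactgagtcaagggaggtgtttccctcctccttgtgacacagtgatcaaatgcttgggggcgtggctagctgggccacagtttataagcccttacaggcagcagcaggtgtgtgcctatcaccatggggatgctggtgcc
Cxcl10: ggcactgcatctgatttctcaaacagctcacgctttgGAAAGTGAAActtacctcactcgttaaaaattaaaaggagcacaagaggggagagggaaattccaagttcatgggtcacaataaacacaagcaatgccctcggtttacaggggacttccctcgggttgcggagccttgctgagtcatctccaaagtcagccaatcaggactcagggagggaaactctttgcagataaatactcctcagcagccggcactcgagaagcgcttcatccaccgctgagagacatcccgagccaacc
In Rsad2 the match is on the other strand and so reads as its reverse complement. In Isg15 the capitals cover several overlapping matches. Of the 33 interferon members called higher, 25 had a promoter in the table and 15 of these (60%) held the motif, against 4.07% of 5178 measured genes with a promoter and 3.99% of 27025 genes in the table. Among all called genes with a promoter it stood in 7.71% of those higher and 3.01% of those lower in irradiated P2ry12-low cells, and in 9.64% of those higher in sham P2ry12-low cells. Motifs for the transcription factors NF-kB and AP-1 were searched as well. They stood in 4.06% and 10.5% of genes higher in irradiated P2ry12-low cells and in 1.67% and 5.12% of those lower. Among measured genes with a promoter the shares were 1.99% and 6.01%, so an excess was not particular to the interferon motif. A match is a description of these letters and not of bound protein.

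Isg15 had 400 CPM (interval 373 to 429) in P2ry12-low and 28.2 CPM (20.5 to 37.8) in P2ry12-high irradiated cells, a log2 fold of 3.83 (3.39 to 4.30). In sham it had 98.1 and 28.5 CPM, a log2 fold of 1.78 (1.38 to 2.21). The irradiated P2ry12-low cells had the highest of these levels, and the difference between the libraries was not tested. With bins drawn within classes of depth the irradiated log2 fold of Isg15 was 2.94, and without cells carrying markers of another class it was 3.02. Ifitm3, an antiviral membrane protein, had 623 and 65.9 CPM in irradiated cells (3.24) and 214 and 37.3 CPM in sham cells (2.52). Rsad2 had 184 and 11 UMIs in irradiated cells (3.73) and 89 and 4 UMIs in sham cells (4.21). Bst2, which tethers budding virus, was at 1.44 and 1.03. Gbp2, a guanylate-binding protein, was at 3.19 in irradiated cells and had 23 and 19 UMIs in sham cells, under the 50 UMIs at which a gene counts as measured. Gbp7 was the member that was lower, at -1.16, and Irf9, a factor that acts downstream of the interferon receptor, had 0.19. Ifit3 and Ifit3b, and Phf11b and Phf11d, are near-identical pairs whose separate values are uncertain. For 10 of 33 members measured in both libraries the irradiated fold was the larger with intervals apart, and for 1 it was the smaller. The summed interferon level was 5608, 2355, 1883 and 1455 CPM over the irradiated bins and 2853, 2007, 1638 and 1264 CPM over the sham bins.

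Transcripts of most chemokines were higher in P2ry12-low cells. Of 15 measured members of the list, which also holds chemokine receptors, 9 were higher and 3 lower in irradiated cells, with a median log2 fold of 2.57, and 9 of 15 were higher with none lower in sham, with a median of 1.81. The shares of all genes called higher were 10.0% in irradiated and 5.08% in sham cells. Without the 10% of P2ry12-low cells richest in interferon, class II and chemokine UMIs the medians were 1.80 in irradiated and 0.85 in sham cells. For genes measured from 1 UMI they were 2.27 and 0.62. Of the 15 members measured in both libraries, 2 had the larger fold in irradiated cells with intervals apart and 6 the smaller. The shares over all genes were 3.69% and 6.97%. Ccl4, a chemokine that attracts myeloid and T cells, had 4349, 2723, 1153 and 619 CPM over the irradiated bins and 919, 267, 115 and 71.7 CPM over the sham bins. Its log2 fold was 2.81 in irradiated cells and 3.68 in sham cells, and that of Ccl3, its close relative, was 2.57 and 3.73. For both genes the sham fold was the larger, although the level was higher in every irradiated bin than in the sham bin of the same rank. Ccl12, a ligand of Ccr2 on monocytes, had 2667 and 410 CPM in irradiated cells (2.70) and 693 and 159 CPM in sham cells (2.12). Cxcl16, a membrane-bound chemokine, had 561 and 65.3 CPM in irradiated cells (3.10) and 74.1 and 23.5 CPM in sham cells (1.66). Ccl2 was at 2.98 and Ccl7 at 4.48. Cxcl10 had 397 and 6 UMIs in irradiated cells (5.72) and 158 and 9 UMIs in sham cells (3.87).

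Ccl5, a T-cell attractant that interferons also induce (chromosome 11, 83525778 to 83530518, minus strand), had the largest fold of any named gene. Irradiated P2ry12-low cells held 1542 Ccl5 UMIs and irradiated P2ry12-high cells 4, with a log2 fold of 8.26 (6.90 to 10.14). Sham P2ry12-low cells held 447 and sham P2ry12-high cells 4 (6.54). Of the Ccl5 UMIs in irradiated P2ry12-low cells, 312 came from 1 cell, and the log2 fold without that cell was 7.94. Among the receptors on the list, Ccr1 was lower at -0.72 and Cx3cr1, as above, at -0.65, whereas Ccrl2, an atypical receptor, was higher at 1.97.

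Genes of disease-associated microglia, a state first described around amyloid plaques, were mostly higher in P2ry12-low cells too. Of 29 measured members 22 were higher, against 10.0% of all genes, and none lower in irradiated P2ry12-low cells, with a median log2 fold of 1.59. In sham 19 of 28 were higher, against 5.08% of all genes, and none lower, with a median of 0.96. Over the 27 members measured in both libraries the medians were 1.45 in irradiated and 0.94 in sham cells. Apoe, the lipid carrier, had 3498, 2513, 1721 and 962 CPM over the irradiated bins (log2 fold 1.86) and 4635, 2822, 1995 and 1576 CPM over the sham bins (1.56). Apoe was thus lower in every irradiated bin than in the sham bin of the same rank, unlike Ccl3 and Ccl4. Lpl, a lipase, had 169 and 10.2 CPM in irradiated cells (4.05) and 116 and 27.6 CPM in sham cells (2.07). Lgals3, the glycan-binding galectin-3, had 350 UMIs in P2ry12-low and 2 in P2ry12-high irradiated cells, a log2 fold of 7.12 (5.26 to 10.17). Axl, a receptor for apoptotic cells, had 158 UMIs in P2ry12-low cells and 0 in P2ry12-high cells, which makes it at least 41.9-fold higher against a floor of 3 counts over the bin. Such genes stand at that bound in the list medians. Among the more abundant members, the tetraspanin Cd63 was at 1.98, the ferritin chain Fth1 at 1.67 and the protease Ctsb at 1.33. Fth1 was at 0.81 in sham cells, and for 13 of 27 members measured in both libraries the irradiated fold was the larger with intervals apart.

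Lysosomal genes had a small median fold, but a larger share of them than of all genes was called higher. Of all measured genes 10.0% were higher and 17.2% lower in irradiated cells, against 5.08% and 3.14% in sham cells. Of 39 lysosomal genes measured, 13 were higher and 1 lower in irradiated P2ry12-low cells, with a median log2 fold of 0.24, and 6 were higher in sham. Those higher were led by Cd63 and Ctsb and included Neu1 (1.21), a sialidase, and Atp6v1a (1.25), a proton pump subunit. In cholesterol and lipid handling 8 of 15 were higher and 1 lower, against 5 of 16 and none in sham. The sterol exporter Abcg1 was at 1.60, the lipid droplet protein Plin2 at 2.25 and Soat1, which esterifies cholesterol, at 1.42. In glycolysis and hexose transport 7 of 18 were higher and 2 lower, with Tpi1 at 1.51 and Ldha at 0.99 against Slc2a5 at -2.67. Complement and Fc receptor genes split. C3ar1 (1.46) and C5ar1 (1.75), the anaphylatoxin receptors, and Fcgr4 (2.95) were higher, while Fcgr3 (-0.78) was lower. The C1q chains C1qa (-0.11), C1qb (-0.02) and C1qc (-0.20) did not reach the threshold. C5ar1 had 787 and 234 CPM in irradiated cells and 181 and 131 CPM in sham cells, where its log2 fold was 0.47.

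Cytokine and NF-kB genes were higher in 15 of 23 and lower in 1 of 23 measured, with a median of 1.06. In sham 14 of 26 were higher and 0 lower, with a median of 0.73. Over the 23 members measured in both libraries the medians were 1.06 in irradiated and 0.97 in sham cells. Members high in P2ry12-low cells alone reach the UMI minimum for a measured gene through those cells. That minimum therefore bears on these counts and medians. For genes measured from 1 UMI the medians were 1.05 in irradiated and 0.80 in sham cells. Of all measured genes 10.0% were higher and 17.2% lower in irradiated cells, against 5.08% and 3.14% in sham cells. Tnf, an inflammatory cytokine, had 117 and 24.3 CPM in irradiated cells (log2 fold 2.26) and 26.0 and 6.90 CPM in sham cells (1.91). Csf1, the growth factor that signals through Csf1r, was at 3.42, and Nfkbia, the feedback inhibitor of NF-kB, at 1.06. The subunit gene Rela was the member that was lower, at -0.73. Immediate early genes, which respond within minutes to stimuli that include cell dissociation, were higher in 12 of 20 and lower in 1 of 20 measured members in irradiated cells and higher in 15 of 20 in sham, with medians of 0.87 and 1.15. With bins drawn within classes of depth these medians were 0.48 in irradiated and 0.95 in sham cells. Atf3 was at 2.97 and 3.61, Fos at 1.48 and 1.86 and Dusp1 at 2.56 and 1.98 in irradiated and sham cells. Jun had -0.07 in irradiated and 0.43 in sham cells. For 12 of 19 members measured in both the irradiated fold was the smaller with intervals apart, and for 1 the larger. Heat shock genes were higher in 7 of 13 measured, with the endoplasmic reticulum chaperone Hspa5 at 1.03.

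The p53 targets, the genes that damage-activated p53 switches on, did not follow P2ry12 as a group. Their summed level was 10361, 10382, 10282 and 10216 CPM over the irradiated bins, and 3181, 2586, 2482 and 2286 CPM over the sham bins. Of 44 measured members 2 were higher, against 10.0% of all genes, and 7 lower, against 17.2%, in irradiated P2ry12-low cells, with a median log2 fold of -0.17, close to the -0.14 of all genes. In sham 6 of 29 were higher, against 5.08% of all genes, and 1 lower, against 3.14%, with a median of 0.10. Cdkn1a, the cell-cycle inhibitor p21 (chromosome 17, 29090976 to 29100727, plus strand), had 2908, 3033, 3012 and 2978 CPM over the irradiated bins, a log2 fold of -0.03 (-0.09 to 0.02). In the sham bins it had 113, 31.5, 29.3 and 27.1 CPM, a log2 fold of 2.05 (1.65 to 2.48). The intervals were apart, and Cdkn1a ranked first among the genes whose fold was smaller in irradiated cells. In irradiated P2ry12-low cells 30.4% of the Cdkn1a UMIs lay in the 10% of cells richest in them, whereas in sham P2ry12-low cells that share was 86.8% of 295 UMIs. Without the barcodes shared by the libraries the sham log2 fold of Cdkn1a was 2.05.

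Other p53 targets went in several directions. Bax, which permeabilises mitochondria, had 755 and 725 CPM in irradiated cells (log2 fold 0.06) and 168 and 127 CPM in sham cells (0.40). Mdm2, which degrades p53, was at 0.13. Gdf15, a stress-induced secreted factor, was higher, with 736, 358, 123 and 65.3 CPM over the irradiated bins (3.49), and had only 15 and 2 UMIs in the sham bins. Plk2, a stress-induced kinase, was higher at 1.15. The 7 members that were lower were Sesn1 (-1.95), Perp (-1.19), Ddit4 (-1.17), Ppm1d (-1.11), Epha2 (-0.94), Bbc3 (-0.84) and Triap1 (-0.62). Sesn1 and Ddit4 encode inhibitors of mTORC1, and Ddit4 was lower in sham as well (-1.04). Ppm1d encodes a phosphatase that shuts the p53 response down. Bbc3, which encodes the pro-apoptotic protein Puma (chromosome 7, 16308393 to 16318205, plus strand), had 135, 196, 238 and 243 CPM over the irradiated bins and 31.7, 18.2, 19.4 and 17 CPM over the sham bins. It was thus lower in irradiated P2ry12-low cells and higher in sham P2ry12-low cells (0.90), but with bins drawn within classes of depth its irradiated log2 fold was -0.57, under the threshold. Among cell death and survival genes, 4 of 23 were higher and 4 lower, close to the 10.0% and 17.2% of all genes. The anti-apoptotic gene Mcl1 was higher at 1.19, and the pro-apoptotic genes Bcl2l11 (-0.88) and Casp8 (-0.87) were lower. The Bcl2a1 copies were higher too, at 0.72 to 2.23, but are near-identical and uncertain one by one.

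**Figure D4:**
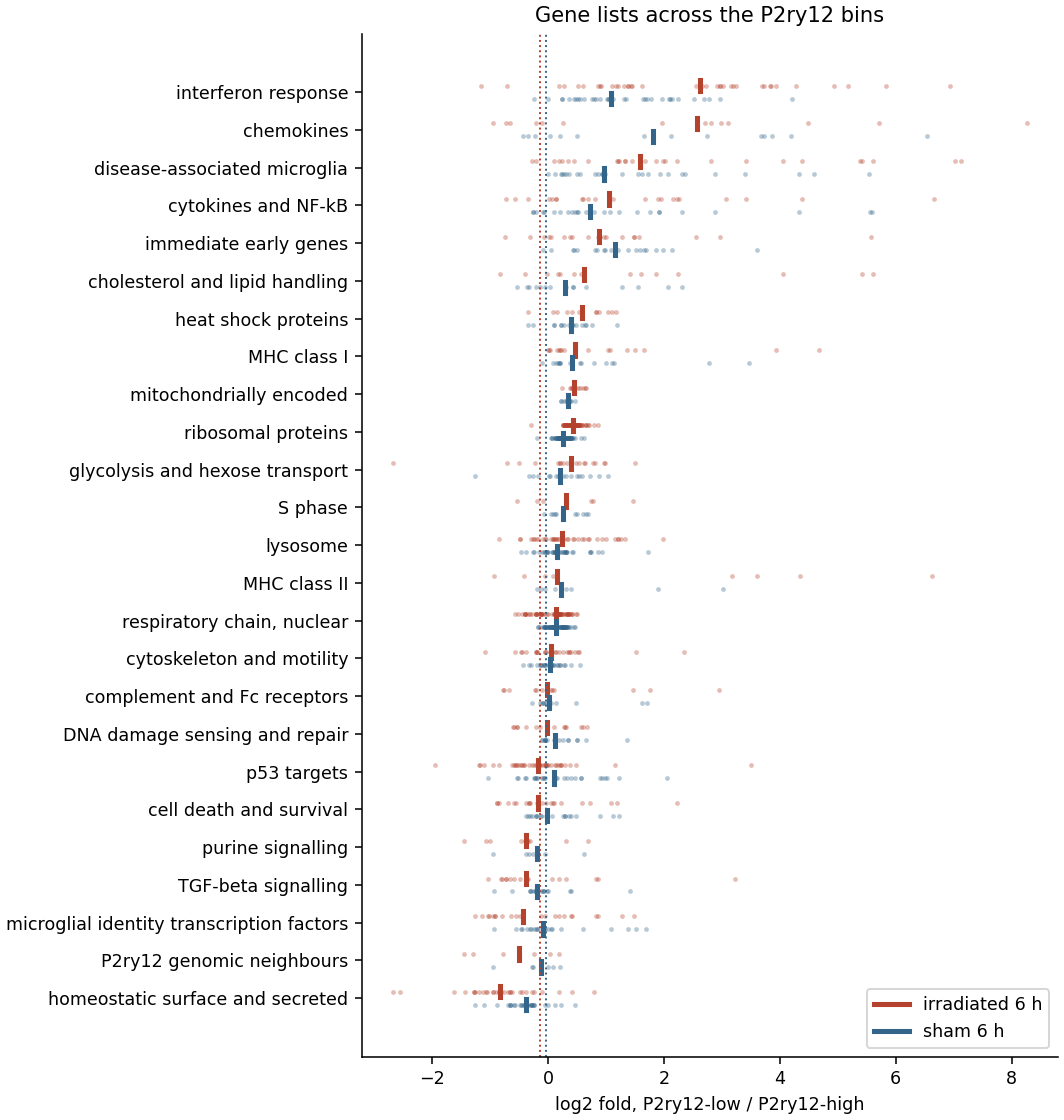
Log2 fold of P2ry12-low over P2ry12-high cells (x axis) for each gene list with 5 or more measured members (y axis), with bars at the list median and dots for members, in irradiated and sham cells, and dotted lines at the all-gene medians. Over the members measured in each library, interferon (2.62 against 1.09), chemokine (2.57 against 1.81) and disease-associated genes (1.59 against 0.96) lie to the right, homeostatic genes (-0.84 against -0.39) to the left, and p53 targets (-0.17 against 0.10) near the dotted lines.

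Antigen presentation genes of class I were higher in 8 of 17 and lower in none in irradiated P2ry12-low cells, and higher in 6 of 17 in sham. Over all genes 10.0% were higher and 17.2% lower in irradiated cells, and 5.08% were higher in sham cells. H2-K1 had 1734 and 672 CPM in irradiated cells (log2 fold 1.37) and 598 and 273 CPM in sham cells (1.13). The light chain B2m was at 0.69. H2-Q6 and H2-Q7 are near-identical and their separate values are uncertain. In class II, 4 of 9 were higher and 1 lower, but the P2ry12-low cell richest in each gene held 117 of the 125 H2-Aa UMIs, all 77 H2-Eb1 UMIs and 131 of the 184 H2-Ab1 UMIs. Without the richest cell the log2 fold was 2.67 for H2-Aa, with an interval from -0.22 to 8.15, and 1.82 for H2-Ab1 (0.89 to 2.86). Cd74, the invariant chain, had 829 and 92.2 CPM (3.17), and without its richest cell, which held 424 of 1630 UMIs, the log2 fold was 2.74. The peptide-loading gene H2-DMb1 was the member that was lower, at -0.94.

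Housekeeping and cell-cycle groups had small medians in irradiated cells. Of all measured genes 10.0% were higher in irradiated and 5.08% in sham cells. In irradiated cells the mitochondrially encoded and S phase genes exceeded that share. Ribosomal protein genes had a median log2 fold of 0.43 in irradiated and 0.25 in sham cells, with 7 of 78 and 1 of 78 higher and none lower, and for 43 of 78 the irradiated fold was the larger with intervals apart. Nuclear genes of the respiratory chain had 0 of 69 called in either library by the fold and interval rule, with medians of 0.14 and 0.13. Mitochondrially encoded genes had medians of 0.45 and 0.34, with 3 of 12 higher in irradiated cells. Cytoskeleton and motility genes had medians of 0.06 and 0.03, with 2 of 28 higher, the actin-capping Capg (1.52) and Vim (2.35), and 1 lower, Wasf2 (-1.09). DNA damage sensing and repair genes had 0 of 14 called in irradiated cells and 2 of 17 higher in sham. Genes of G2 and mitosis could hardly be measured in irradiated cells, with 3 of 35 members past 50 UMIs and none called. In sham P2ry12-low cells 11 of 13 were higher, with a median of 1.65. Genes high in P2ry12-low cells alone pass 50 UMIs through those cells, which bears on that count and median. S phase genes were higher in 3 of 7 in irradiated and 2 of 11 in sham cells, led by Pcna, the replication clamp, at 0.78 and 0.65.

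The 15 genes highest in irradiated P2ry12-low cells, taken by the lower end of the interval, were Ccl5, Lgals3, Cybb, Axl, Mnda, Cxcl10, Lilrb4a, AI607873, Rab7b, Gadd45b, H2-Aa, Ifi204, Gpr162, Fabp5 and Ccl7. Cybb, the catalytic subunit of the phagocyte NADPH oxidase, had 175 UMIs in P2ry12-low and 0 in P2ry12-high cells, at least 46.4-fold higher. Mnda, an interferon-inducible nuclear protein, had 144 and 0 UMIs, at least 38.1-fold higher. Lilrb4a, an inhibitory receptor, had 163 UMIs and 1 UMI, a log2 fold of 7.02 with an interval from 4.52 to 12.33. Gadd45b, a stress-response gene under NF-kB, had 128 UMIs and 1 UMI (6.67, 4.16 to 11.98), and Fabp5, a fatty-acid carrier, 123 and 2 UMIs (5.61, 3.73 to 8.67). With bins drawn within classes of depth the log2 fold was 3.21 for Gadd45b and 2.67 for Fabp5. In all of these the high bin was at or near 0. In sham P2ry12-low cells Cybb had 19 UMIs and Mnda 15, with 0 in P2ry12-high cells, and Rab7b, a small GTPase of endosomes, 9 UMIs against 0.

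The 15 genes lowest were Slc2a5, Sema4b, Il16, Nav3, Ptgs1, Crybb1, Fam110a, Fcrl1, Hpgd, Evi5, Susd3, Tmem100, Sesn1, Sult1a1 and Klhdc8b. Their log2 folds lay between -2.87 (Sema4b) and -1.56 (Susd3) in irradiated cells and between -1.26 (Slc2a5) and -0.35 (Sult1a1) in sham cells. Ptgs1, the constitutive cyclooxygenase, had 195, 422, 515 and 620 CPM over the irradiated bins (-1.67), and Hpgd, which inactivates prostaglandins, 103, 210, 256 and 320 CPM (-1.64). Both had a smaller fold in sham, -0.50 for Ptgs1 and -0.45 for Hpgd. The 15 were picked for their irradiated fold, so a smaller sham fold is no separate result. With the sham cells split at the irradiated limits, as described next, the sham fold was -2.05 for Fam110a, -2.47 for Fcrl1 and -2.24 for Sult1a1, against -1.83, -2.05 and -1.73 in irradiated cells. These sham folds rest on few UMIs on the low side.

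The P2ry12 gap itself was wider in irradiated than in sham cells, so the sham cells were also split at the irradiated limits, which left 49 sham cells on the low side and 1990 on the high side, with a P2ry12 log2 fold of -3.15. At these limits 532 of 8465 measured genes were higher (6.28%) and 456 lower (5.39%) in the 49 cells. The irradiated fold was then larger with intervals apart for 132 of 6563 genes (2.01%) and smaller for 140 (2.13%), against 240 and 453 with each library's own bins. The irradiated P2ry12-low cells held 1965318 UMIs and the 49 sham cells 230245, so the sham intervals are wider, and the part of that in the smaller counts was not tested. The medians do not depend on interval width, but a gene at 0 UMIs in the 49 cells stands at the floor of 3 counts. For a rare gene that floor is above its level in the 1990 cells, which can raise sham medians. The median of the homeostatic list was -0.84 in irradiated cells and -0.83 in sham cells at these limits. Slc2a5 was at -2.67 in irradiated and -2.56 in sham cells, Crybb1 at -1.62 and -1.59 and P2ry13 at -1.45 and -1.44. The folds of other genes stayed further apart at these limits, with Evi5 at -1.98 in irradiated and -0.09 in sham cells and Sesn1 at -1.95 and -0.11. Nav3 was at -1.92 and -0.99 and Sema4b at -2.87 and -1.44. These sham folds rest on few UMIs in the 49 cells, and whether the intervals were apart is not given here. The identity factor median was -0.44 in irradiated and -0.10 in sham cells.

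At the same limits many interferon and ribosomal protein genes had the larger fold in irradiated cells. Over 34 interferon members measured in both, the median was 1.53 in irradiated and 0.57 in sham cells, and 18 of 34 were larger in irradiated cells with intervals apart and none smaller, against 2.01% and 2.13% of all genes. The richest 10% of irradiated P2ry12-low cells held 78.2% of Isg15 and 88.5% of Ifit3 UMIs. Intervals are too narrow for such genes, and members carried by the same cells are not separate results. How far a few cells among the 49 set the sham folds was not tested. Isg15 was at 3.83 in irradiated and 1.58 in sham cells, and Ifit3 at 3.16 and 0.33. Cxcl16 (3.10 and 1.97), Ccl2 (2.98 and 1.37), C5ar1 (1.75 and 0.74) and Ccl5 (8.26 and 4.70) were larger in irradiated cells as well. Of the ribosomal protein genes 46 of 78 were larger in irradiated cells and none smaller, by medians of 0.43 and 0.13, and of the class II genes 3 of 7. Id2 was at 3.23 in irradiated and 2.70 in sham cells and Lpl at 4.05 and 3.17, both with overlapping intervals. For p53 targets the order was the opposite, with a median of -0.14 in irradiated and 0.49 in sham cells over 33 members. By intervals 7 were smaller and none larger. Several p53 targets are rare in sham cells, so the floor can raise this sham median. Cdkn1a was at -0.03 in irradiated and 2.83 in sham cells. Its level was 2908 CPM in irradiated P2ry12-low cells, against 221.5 CPM in the 49 sham cells. Disease-associated genes had 11 of 25 smaller and 1 larger, with medians of 1.33 in irradiated and 1.48 in sham cells, and immediate early genes 8 of 19 smaller and none larger. Ccl4 (2.81 and 3.62) and Ccl3 (2.57 and 3.48) were smaller in irradiated cells.

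How the transcripts were spread over the 460 irradiated P2ry12-low cells differed between groups. If each cell held the same number of UMIs of a gene, the richest 10% of cells (46 cells) would hold 10% of them. The 46 cells were taken anew for each gene, so the cells differ between genes. They held 100% of Cxcl10, 96.8% of Ccl5, 96.7% of Rsad2, 81.8% of Ccl2, 81.4% of Lgals3, 78.2% of Isg15 and 77.3% of Gdf15 UMIs. The shares were 57.2% of Ccl4, 56.1% of Apoe, 52.3% of Ccl3, 41.9% of Id2, 39.9% of Cxcl16 and 30.4% of Cdkn1a UMIs. Median UMIs per cell were 10 for Cdkn1a, 4 each for Ccl3, Ccl4 and Apoe and 2 each for Ccl12 and Id2, and 0 for Isg15, Ccl5 and Gdf15. Most Isg15 UMIs, and likewise most Ccl5 UMIs, thus came from 46 of the 460 cells, whereas Id2 had at least 1 UMI in 337 cells. Genes with few UMIs reach high shares by counting alone, so the shares are to be read beside the UMI counts given above.

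**Figure D5:**
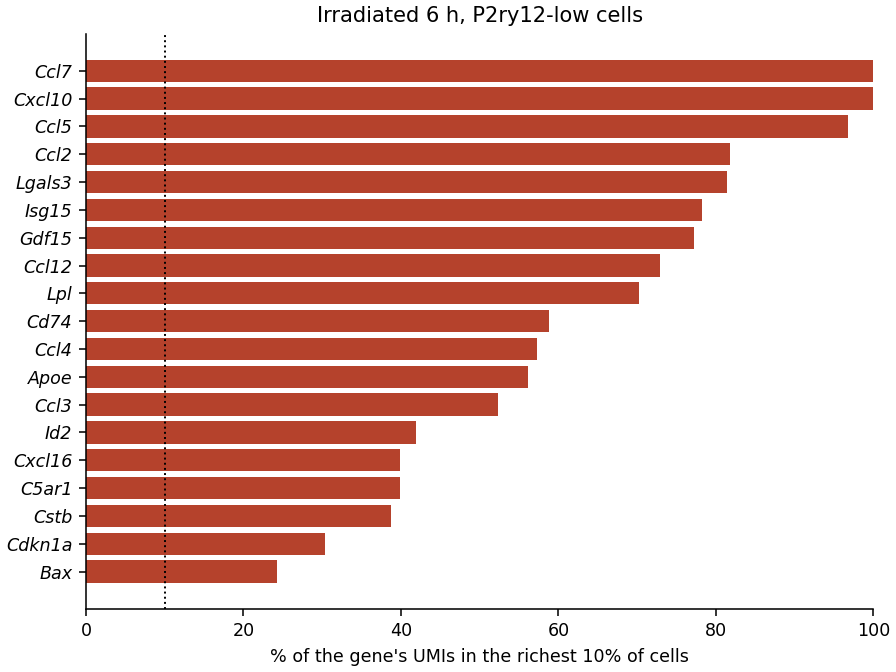
Percentage of each gene's UMIs that lay in the richest 10% of P2ry12-low cells (x axis) for named genes (y axis) in the irradiated library at 6 h, with a dotted line at 10%, the share under an even spread. Cxcl10 stands at 100%, Isg15 at 78.2%, Id2 at 41.9% and Cdkn1a at 30.4%.

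The richest cells for a pair of lists overlapped to different degrees. If the lists picked their richest 10% independently, about 10% of those cells would be shared. Shares of 2.17% and 4.35% below thus lie only a few cells under that reference. With cells thinned to 2000 UMIs and shared genes removed, the richest 10% of the 460 irradiated P2ry12-low cells for chemokines and for the interferon response shared 11 of 46 cells (23.9%), and those for chemokines and disease-associated genes 1 (2.17%). The richest cells for p53 targets and immediate early genes shared 22 (47.8%), those for p53 targets and chemokines 13 (28.3%) and those for p53 targets and the interferon response 2 (4.35%). In sham P2ry12-low cells p53 targets and immediate early genes shared 9 of 63 cells (14.3%), and chemokines and the interferon response 17 (27.0%).

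At 1 week the same rule was applied to the other libraries as a further yardstick. In irradiated cells 348 of 6862 genes were higher (5.07%) and 132 lower (1.92%) in P2ry12-low cells, and in sham cells 230 of 5786 were higher (3.98%) and 207 lower (3.58%). Over the 5628 genes measured in all 4 libraries, 73 were higher in P2ry12-low cells of all 4 and 10 were lower in all 4. Those 10 were Fam110a, P2ry13, Slc2a5, Gp9, Thrsp, Klhdc8b, Pecam1, Csmd3, Tmem44 and Upk1b, named here because the count is small, after their values were seen for those outside the lists. The homeostatic median was -0.33 in irradiated and -0.38 in sham cells at 1 week, against -0.84 and -0.39 at 6 h. The interferon median was 0.63 in irradiated and 0.56 in sham cells at 1 week, against 2.62 and 1.09 at 6 h, over the members measured in each. These were 27 and 19 members at 1 week and 39 and 34 at 6 h, so the medians cover different genes.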

How the data were processed

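Single microglia were profiled by 10x Genomics Chromium. The authors deposited raw UMI counts per gene and barcode, made with Cell Ranger 2.0 on mm10, as the submitters' processing notes list. The rule that called cells, like the annotation, is not given in the sources used here. Coordinates came from GENCODE vM21, in which 27645 of 27998 identifiers were found. Members and the 26 gene lists and 16 marker classes were chosen with earlier results of these data known. Of the list symbols 6 were not matched.

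Cells that passed the rule were cut into 4 bins by P2ry12 share, and UMIs were summed per bin and scaled to CPM. Folds carry exact conditional binomial intervals, and levels exact Poisson intervals, both at 95%. Folds of genes at 0 use a floor of 3 counts over the bin. Named genes are the 15 highest and 15 lowest by the interval end nearest to 0 and the 8 whose folds differed most between libraries in each direction, from 100 UMIs, besides list members. Scrublet's calls were not removed. Results were recomputed under 20 other settings, 3 of them chosen after seeing the data. Software was Python 3.11.15, numpy 2.4.6, scipy 1.17.1, pandas 2.3.3, scanpy 1.11.5 and matplotlib 3.10.9. Values of some members are not reported here.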

Additional observations from a re-analysis of the deposited data

Results flagged for a closer look

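Bbc3, the gene of the pro-apoptotic protein Puma, stood out because its called difference had opposite signs in the 6 h libraries. It was lower in irradiated P2ry12-low cells, with a log2 fold of -0.84 (266 UMIs in P2ry12-low and 379 in P2ry12-high cells), and higher in sham P2ry12-low cells, with a log2 fold of 0.90 (83 and 37 UMIs). With 1 library per group the difference was not tested. With bins drawn within classes of depth the log2 fold was -0.57 in irradiated cells, under the 1.5-fold threshold, and 0.81 in sham cells. Of all genes called in both 6 h libraries, the only others with opposite signs were Mlph (0.69 in irradiated, -1.04 in sham) and Gm26870 (0.79 and -1.41), which were singled out after their values were seen.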

How the results depend on the processing

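The counts were 670 genes higher and 1145 lower in irradiated cells, 379 and 234 in sham cells, and 693 with intervals apart between the libraries. Thinning every cell to 2000 UMIs gave 727 lower in irradiated cells, 205 higher in sham and 363 apart, and bins from one part of the UMIs with folds from the other gave 731, 245 and 293. Measuring genes from 200 UMIs gave 308 and 417 in irradiated and 126 and 71 in sham cells, and from 1 UMI 622 higher in sham. A 2-fold threshold gave 341 and 409 in irradiated and 180 and 37 in sham cells. Bins set by Cx3cr1 gave 314 and 573 in irradiated and 123 and 153 in sham cells, with 373 apart. Sham cells at the irradiated limits gave 456 lower and 272 apart. Fewer UMIs or genes enter the thinned, split and 200-UMI settings by construction. A 2-fold threshold can likewise only lower the counts of called genes, and a minimum of 1 UMI can only raise them. For the other settings the cause was not tested. Cx3cr1 bins reversed Ccl7 (-0.72) and Id2 (-0.11) in sham, and the irradiated limits reversed the S phase median in sham (-0.070). No other called named gene reversed. List medians near 0 changed sign in 38 of 1005 recomputations, the largest being the irradiated S phase median of 0.31, which was -0.19 with the lowest of 3 bins against the highest, and the irradiated cell death median of -0.18 was 0.03 there. Without the P2ry12-low cells at 0 P2ry12 UMIs the irradiated counts were 625 and 1055, and without the 10% of P2ry12-low cells richest in interferon, class II and chemokine UMIs 611 and 1057, and without barcodes shared by the libraries 671 and 1148, all chosen after seeing the data. Without cells carrying markers of another class they were 601 and 973, and with bins drawn within 10 classes of depth 596 and 895. No paired analysis was possible because each group is 1 library, and no replicate can be left out. Depth limits genes under 50 UMIs.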

Other observations

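The counts of G2 and mitosis genes that were measured, and higher in P2ry12-low cells, differed between 6 h and 1 week. In irradiated cells at 1 week 26 of 26 measured members were higher in P2ry12-low cells, with a median log2 fold of 4.61, whereas 3 of 35 members were measured in irradiated cells at 6 h and none was called. In sham cells 0 of 2 measured members were called at 1 week and 11 of 13 were higher at 6 h. Of all measured genes, 5.07% were higher in irradiated cells at 1 week and 5.08% in sham cells at 6 h. Members high in P2ry12-low cells alone reach the UMI minimum for a measured gene through those cells. That minimum therefore bears on these counts and on the median, and its part in the difference between times was not tested. Top2a, the topoisomerase of dividing cells, had 249 UMIs in P2ry12-low and 11 in P2ry12-high irradiated cells at 1 week, and 22 UMIs and 1 UMI at 6 h.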
